A study of Mus musculus with 106 samples.

Results

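The 67 replication-dependent histone genes of the mouse were followed through 70 lists of ChIP-seq peaks. They were chosen by name alone, as every protein-coding gene whose symbol starts with Hist1h, Hist2h, Hist3h or Hist4h among the 21938 protein-coding genes of the GRCm38 annotation (GENCODE M21), and comprise 6 genes of the linker histone H1, 18 of H2A, 18 of H2B, 12 of H3 and 13 of H4. Of these, 54 carry a Hist1h name and lie on chromosome 13. The 10 Hist2h genes lie together at chr3:96219865-96270132, Hist3h2a and Hist3h2ba at chr11:58948920-58956830, and the only Hist4h gene, Hist4h4, at chr6:136801553-136804415. On chromosome 13 the genes form 2 clusters with no gap over 250 kb, cluster 1 at chr13:21715763-22043676 with 23 members over 327.9 kb, and cluster 2 at chr13:23531050-23934851 with 31 members over 403.8 kb.

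The study compared C57BL/6J mice made diabetic with streptozotocin, a toxin of pancreatic beta cells, with control mice of that strain. The mice were 12 to 14 weeks old when assigned, streptozotocin was given at 42 to 45 mg/kg per day for 5 days, and diabetic mice were taken 6 weeks later with a non-fasted glucose above 13.9 mmol/L. From both, 3 cell preparations were profiled for 2 histone marks, H3K27ac, an acetylation found at promoters and enhancers in use, and H3K4me3, a methylation of promoters. The preparation called HSC (hematopoietic stem cells) is bone marrow from which cells bearing CD3, CD4, B220, Ter119 or Gr1 were removed, with no positive selection, so it holds progenitors besides stem cells. BMDMs (bone marrow-derived macrophages) were grown for 7 days from marrow in medium with 5 mmol/L glucose, from control and diabetic mice alike, and then received either medium alone or, for 16 hours, lipopolysaccharide (LPS, 100 ng/mL) together with interferon-γ (IFN-γ, 10 ng/mL). Each mark has 35 libraries in 6 groups, with 6 libraries in each group except unstimulated diabetic BMDMs, which have 5 (numbers 1, 2, 4, 5 and 6). The study's methods count n as individual animals, while the labels do not tie a library to a mouse, so whether HSC and BMDM libraries with the same number share a mouse is not given in the sources used here.

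Replication-dependent histone genes make the bulk of the histone protein that a cell needs while it copies its DNA, and are transcribed mainly in S phase. They have no introns, and their mRNAs end in a stem-loop, bound by SLBP, in place of a poly(A) tail. NPAT, a substrate of the cyclin E kinase, gathers with the transcription and 3′-end machinery in histone locus bodies that form on the clusters. H2A, H2B, H3 and H4 build the nucleosome core and H1 binds the linker DNA. The genes Hist1h1t, Hist1h2aa and Hist1h2ba are known for expression in testis. The cell cycle stage of the cells was not measured.

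The DNA itself shows which genes can be read separately. RefSeq promoters (GRCm38.p6) were matched to 62 of the 67 genes. Those of Hist1h2bm and Hist1h4j, which passed tests below, and of Hist1h1c and Hist1h1a, which stand for the H1 family although no H1 gene passed, are printed here from 250 bases before the start to 30 bases after it, 5′ to 3′. Capitals mark, on either strand, the CCAAT box (CCAAT), the TATA box (TATAAA), the octamer (ATTTGCAT) and the H1 box (AAACACA).
Hist1h2bm, chr13:21721794-21722073, plus strand: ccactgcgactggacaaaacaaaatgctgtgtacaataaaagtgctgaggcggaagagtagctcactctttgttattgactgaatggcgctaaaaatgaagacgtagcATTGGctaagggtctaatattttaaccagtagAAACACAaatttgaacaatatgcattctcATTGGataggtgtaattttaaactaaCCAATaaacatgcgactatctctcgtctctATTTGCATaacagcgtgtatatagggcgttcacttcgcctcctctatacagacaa
Hist1h4j, chr13:21734784-21735063, plus strand: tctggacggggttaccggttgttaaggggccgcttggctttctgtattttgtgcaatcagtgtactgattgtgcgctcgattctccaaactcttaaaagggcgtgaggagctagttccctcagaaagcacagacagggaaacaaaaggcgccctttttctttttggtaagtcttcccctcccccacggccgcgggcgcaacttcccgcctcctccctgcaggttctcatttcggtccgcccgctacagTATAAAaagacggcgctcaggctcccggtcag
Hist1h1c, chr13:23738557-23738836, plus strand: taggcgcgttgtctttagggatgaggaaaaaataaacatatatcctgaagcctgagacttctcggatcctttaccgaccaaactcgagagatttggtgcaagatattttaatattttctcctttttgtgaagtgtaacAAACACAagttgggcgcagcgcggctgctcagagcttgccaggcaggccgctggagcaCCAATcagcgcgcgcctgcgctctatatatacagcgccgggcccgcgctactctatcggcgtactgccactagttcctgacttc
Hist1h1a, chr13:23763418-23763697, plus strand: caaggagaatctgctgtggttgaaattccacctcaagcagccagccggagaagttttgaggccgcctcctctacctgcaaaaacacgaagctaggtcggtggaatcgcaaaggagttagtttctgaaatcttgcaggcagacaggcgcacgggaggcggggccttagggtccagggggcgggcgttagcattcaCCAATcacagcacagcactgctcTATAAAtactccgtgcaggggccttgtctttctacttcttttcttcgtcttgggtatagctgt

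Over the whole 300-base RefSeq promoters, CCAAT stood in 53 of 62 histone genes (85.5%) against 37.9% of 27025 promoters. It stood in all 6 H1, 18 H2A, 16 H2B and 10 H3 promoters with a match, but in 3 of 12 H4 promoters. TATAAA stood in 35 of 62 (56.5%, against 14.2% of all promoters). ATTTGCAT stood in 13 of 62 (21%, against 1.75%), 7 of them H2A and 6 of them H2B promoters. AAACACA stood in 5 of 6 H1 promoters and in 9 of 62 overall (14.5%, against 7.14%). Hist1h2bm thus holds the CCAAT box, the octamer and the H1 box letters, Hist1h4j a TATA box alone, Hist1h1c the CCAAT box and the H1 box, and Hist1h1a the CCAAT and TATA boxes. These are matches of letters only.

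The stem-loop sets the H4 genes apart from the other families. Within 150 bases after the stop codon, 63 of the 67 genes held the pattern of the loop with free bases inside the stem, against 71 of 21752 protein-coding genes in all (0.326%). The 8 others include H2afx, the gene of the replacement histone H2A.X, and H2bfm, a further H2B gene. The 6 forms found, 5′ to 3′ in the sense of the gene with the loop in lower case between the capitals of its stem, were as follows.
Stem-loop of 41 genes, 5 H1, 15 H2A, 13 H2B and 8 H3: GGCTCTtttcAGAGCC
Stem-loop of 9 genes, 1 H1, 1 H2A, 4 H2B and 3 H3: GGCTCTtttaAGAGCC
Stem-loop of 8 genes, H4: GGCCCTtttcAGGGCC
Stem-loop of 2 genes, H4: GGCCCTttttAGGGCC
Stem-loop of 2 genes, H4: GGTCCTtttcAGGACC
Stem-loop of 1 gene, H2A: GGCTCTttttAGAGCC

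All 12 stem-loops of H4 genes thus had a stem other than the one shared by H1, H2A, H2B and H3. No match was found for Hist2h2be, Hist1h2an, Hist1h3g and Hist1h4a.

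Promoters of these genes are short, close together and partly repeated, which limits what single genes can show. Promoters, taken as 1 kb either side of each annotated start site, overlapped so that the 67 genes fell into 38 separate stretches. Of the genes, 16 had a stretch of their own and 51 shared one, up to 3 genes together, and genes that share a stretch mostly share its peaks and values. The median gene had 80.7% of its 50-base promoter words unique in the genome, 50 bases being the length of the reads. A group of 10 genes had under 50% unique, and among them Hist1h2ao, Hist1h2ap, Hist1h2bq and Hist1h2br had 0%, so values of these 10 may include reads from their near-identical copies.

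The strength of a promoter was read as a percentile: the highest −log10 p among deposited peaks that reach the promoter was ranked, within its library, among all 21938 genes. The lists held between 13730 and 277213 peaks and gave between 40.8% and 79.3% of genes a promoter peak, and genes without one share the lowest rank, which is percentile 29.6 in the list with the fewest such promoters. Percentiles therefore compare a gene with the other genes of its library and carry no absolute amount, and in cell populations more marked cells and more mark per cell cannot be told apart. Before the histone results, 3 H3K27ac libraries stood away from their groups on a score of 172 genes higher and 234 lower with LPS+IFN-γ in diabetic BMDMs, histone genes left out (mean percentile of the first set minus that of the second). Control LPS+IFN-γ replicate 5 scored -15.6, against -0.414 to 15.3 for the other control LPS+IFN-γ libraries, and unstimulated control replicates 5 and 6 scored 1.51 and -2.12, against -23.2 to -5.09 for the others. Both replicates 5 thus lay within the range of the opposite label, whereas unstimulated replicate 6 lay between the 2 ranges and did not go against its label. In H3K4me3 the score did not separate control libraries with LPS+IFN-γ (-23.9 to -6.92) from those without (-28.0 to -9.40), so it could not check the H3K4me3 libraries with these labels. All were kept under their labels, and results are given without them, in both marks, where they matter. In the HSC preparation, 5 of 10 stem and progenitor markers had higher H3K27ac than in unstimulated BMDMs in control and in diabetic mice, Kit among them in control mice at a mean percentile of 56.4 against 31.6. Of 10 macrophage markers 4 were lower in control and 2 in diabetic mice. The typical library had a median macrophage marker at 32.7 in control HSCs against 40.9 in unstimulated control BMDMs. In diabetic mice the order was reversed, with 33.5 in HSCs against 26.1. Of all genes tested, 7.36% and 6.82% were higher in HSCs of control and diabetic mice, and 7.84% and 8.18% lower. Of 6 erythroid markers 4 were higher in both, Hba-a1 among them at 63.7 against 21.2 in control mice, although Ter119-bearing cells had been removed. Of 6 granulocyte markers tested 2, Mpo and Ctsg, were higher in both (Ctsg at 40.8 against 19.4 in control mice) and Camp was lower in control mice, although Gr1-bearing cells had been removed; the part of such cells in the histone results was not tested.

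Most histone promoters carried a strong H3K27ac peak. A promoter is called marked here where 1 of the 10000 strongest peaks of the library reaches it, so that long and short lists are read alike. In H3K27ac, 29 of the 67 genes (43.3%) were marked in all 35 libraries, against 19.7% of all protein-coding genes. They include Hist1h1c, Hist1h4h, Hist1h3b, Hist2h2ac, Hist3h2a and Hist4h4. Hist1h1d and the testis gene Hist1h1t were marked in none. In H3K4me3, 0 of the 67 genes were marked in all 35 libraries, against 3.80% of all genes, and Hist1h1d, Hist1h1t, Hist1h2aa and Hist1h2ba were marked in none. Hist1h1d was read at its only annotated start, which lies 1770 bp from its RefSeq start. Whether it was marked at the RefSeq start was not counted.

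The number of marked histone genes followed the cell type in opposite ways in the 2 marks. In H3K27ac, control HSC libraries had 63 to 65 of the 67 promoters marked (median 64) and diabetic HSC libraries 64 to 65 (median 65). Unstimulated BMDMs had 56 to 63 (median 60.5) in control mice, and 58, 62, 61, 59 and 62 in diabetic mice. With LPS+IFN-γ, control BMDMs had 53 to 63 (median 58.5) and diabetic BMDMs 59 to 61 in 5 libraries and 34 in replicate 3. The HSC values lay above every unstimulated diabetic value and overlapped the control values at 63. In H3K4me3 the HSC groups had the lowest medians, with 7 to 55 marked (median 25.5) in control and 15 to 38 (median 30) in diabetic mice. Unstimulated BMDMs had 26 to 59 (median 48.5) in control mice and 42, 51, 46, 50 and 47 in diabetic mice, and with LPS+IFN-γ the counts were 38 to 58 (median 48.5) and 47 to 63 (median 58.5). Diabetic HSC libraries thus lay below all unstimulated diabetic BMDM libraries, whereas the control groups overlapped. List length differed by cell type in this mark. Control HSC lists held 37378 to 109214 peaks and unstimulated control BMDM lists 81003 to 212718. In diabetic mice the HSC lists held 13730 to 145750 peaks and the unstimulated BMDM lists 66146 to 137710. The part of list length in the H3K4me3 differences was not tested. Of all genes, 39.6% to 44.8% were marked in H3K27ac HSC libraries and 36.5% to 42.7% in unstimulated BMDM libraries. With LPS+IFN-γ the share was 32.3%, in diabetic replicate 3, to 42.2%. In H3K4me3 the shares were 34.0% to 42.7% in HSCs, 39.1% to 43.1% unstimulated and 35.4% to 42.8% with LPS+IFN-γ. The part of these shares in the counts was not tested.

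**Figure D1:**
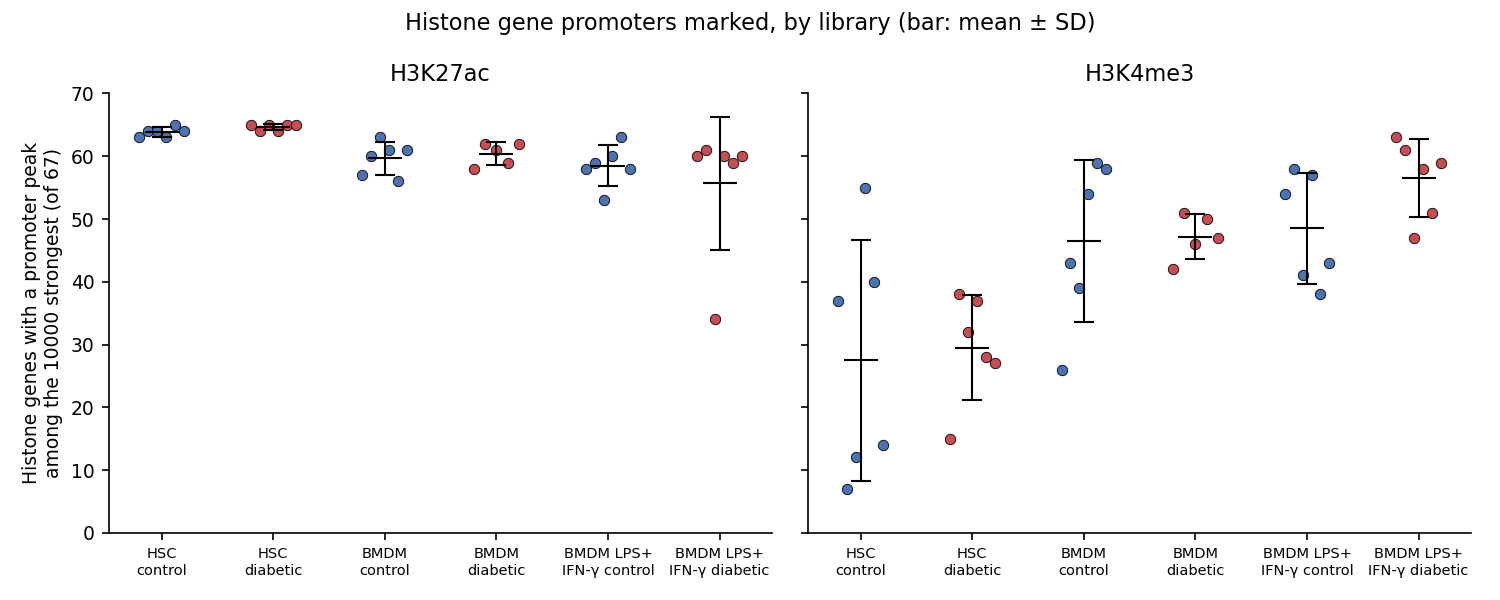
Number of histone genes, of 67, whose promoter is reached by 1 of the 10000 strongest peaks, by group (x axis) for H3K27ac (left) and H3K4me3 (right); each point is 1 library, blue for control and red for diabetic mice, and bars give the mean and SD. HSC groups have the highest medians in H3K27ac (64 and 65) and the lowest in H3K4me3 (25.5 and 30), where control HSC libraries spread from 7 to 55, and the single low H3K27ac point with LPS+IFN-γ is diabetic replicate 3 (34).

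Families differed in level. In H3K27ac of control HSCs, the median gene of H2A, H2B and H3 had a mean percentile of 91.4, 91.3 and 91.3, that of H4 83.6 and that of H1 65.8. In H3K4me3 of the same cells, the median was 63.8 for H3, 59.0 for H2B and 57.7 for H2A, but 45.5 for H4. In unstimulated control BMDMs the H4 median in H3K4me3 was 67.8, beside 73.6 for H3. Among H1 genes, H3K27ac percentiles in control HSCs ran from 80.8 to 97.1 (median 85.9) for Hist1h1e and 77.4 to 91.2 (median 84.9) for Hist1h1c to 58.3 to 86.9 (median 66.2) for Hist1h1b and 45.9 to 83.5 (median 62.4) for Hist1h1a. The testis gene Hist1h1t had 37.8 to 57.3 (median 45.2), overlapping Hist1h1a. Hist1h2aa and Hist1h2ba share a stretch and had 52.9 to 61.7 (median 57.2). Hist1h1d had 14.5 to 46.5 (median 16.4), but its only annotated start lies 1770 bp from the RefSeq start. Read at the RefSeq start, Hist1h1d had 72.4 to 96.4 (median 77.0) in control HSCs and 52.9 to 83.9 (median 74.2) in unstimulated control BMDMs.

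The first comparison asked how histone promoters differ between the marrow preparation and unstimulated macrophages. In H3K27ac, 16 of 67 genes (23.9%) were higher in HSCs than in BMDMs of control mice and 0 were lower, by limma over all genes tested with Benjamini-Hochberg adjustment. Of all 17620 genes tested, 7.36% were higher and 7.84% lower, so the share of histone genes called higher was above the background and none was called lower. Of the 67 genes, 62 had a higher mean in HSCs, with a median difference of 6.90 percentile points against 0.345 over all genes tested. The 16 genes lie in 10 stretches, 10 genes in cluster 1, 5 in cluster 2 and Hist3h2ba on chromosome 11. Hist1h2ap, Hist1h2br and Hist1h4n among them have under 50% unique words. By family they were 3 of 18 H2A, 5 of 18 H2B, 4 of 12 H3 and 4 of 13 H4 genes, and 0 of 6 H1 genes.

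In diabetic mice 5 of 67 genes (7.46%) were higher in HSCs and 0 lower, against 6.82% higher and 8.18% lower of all genes. This count depended on the settings: 14 genes (20.9%, against 6.15% of all genes higher) were called on the logit scale, 13 (19.4%, against 7.34%) with only the 2 groups fitted, 12 of 66 (18.2%, against 6.81%) with the summit inside the promoter and 11 of 66 (16.7%, against 6.65%) with promoters of 500 bp, but 2 (2.99%, against 3.76%) when ranked by fold enrichment. All 67 had a higher mean in HSCs, with a median difference of 7.09 points against 0.442 over all genes. Only Hist1h2af was called in both control and diabetic mice. The difference between the effects in diabetic and control mice was tested as an interaction in limma, which called 0 histone genes and 0% of all genes (1 histone gene had an unadjusted p under 0.05). Counts of called genes depended on the libraries: without the 3 doubted H3K27ac libraries, 1 gene (1.49%, against 5.41% of all genes) was called higher in control mice, 61 of 67 still had a higher mean and the median difference was 4.61 points. Leaving out unstimulated control replicate 5 alone gave 6 genes, and replicate 6 alone 9.

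Hist1h2af, a core H2A gene at the start of cluster 2, had percentiles of 82.0 to 94.0 (median 89.4) in control HSCs and 60.7 to 89.2 (median 67.9) in unstimulated control BMDMs. Its difference was 16.7 ± 4.19 points (SE, adjusted p = 0.0049), and the groups overlapped in the highest BMDM library. In diabetic mice it had 79.9 to 94.8 (median 88.9) in HSCs and 70.7, 62.6, 76.0, 72 and 82.3 in BMDMs, a difference of 15.8 ± 4.39 points (adjusted p = 0.011). In both kinds of mice the BMDM values reached into the HSC range from below.

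Hist1h2bm, an H2B gene whose promoter holds the octamer (printed above), had 88.5 to 98.4 (median 89.7) in control HSCs and 65.4 to 87.5 (median 76.4) in control BMDMs, with no overlap. The strongest deposited peak over it had a −log10 p of 88.1 to 161 (median 141) in control HSCs and of 42.8 to 89.2 (median 53.8) in control BMDMs. Its difference was 13.6 ± 3.65 points (adjusted p = 0.0087). In diabetic mice it had 85.6 to 98.1 (median 94.6) in HSCs and 76.5, 90.4, 80.3, 85.2 and 80.9 in BMDMs, a difference of 10.6 ± 3.83 points that missed the threshold (adjusted p = 0.055).

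The H4 genes Hist1h4j and Hist1h4k lie next to each other in cluster 1. Hist1h4j had 71.0 to 85.8 (median 74.0) in control HSCs and 59.8 to 65.0 (median 63.7) in control BMDMs, a difference of 12.95 ± 3.77 points (adjusted p = 0.015). Hist1h4k had 79.8 to 90.7 (median 82.0) against 55.3 to 78.6 (median 71.0), a difference of 14.9 ± 3.79 points (adjusted p = 0.0053). For both the control groups did not overlap. With Hist1h2bm these were 3 of 67 genes (4.48%) without overlap, against 6.60% of all genes tested. In diabetic mice 2 of 67 (2.99%), Hist1h4h and Hist1h4n, did not overlap, against 9.78% of all genes. The H3 genes Hist1h3g and Hist1h3e were also called in control mice, by 17.4 ± 4.64 points (adjusted p = 0.0080) and 14.2 ± 4.12 points (adjusted p = 0.015).

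In diabetic mice the lowest adjusted p belonged to Hist2h2aa2, an H2A gene of the chromosome 3 group with 42.8% unique words. It had 92.9 to 96.3 (median 94.3) in HSCs and 95.7, 86.2, 76.9, 77.6 and 79.2 in BMDMs, so that 1 BMDM library stood within the HSC range. The difference was 11.4 ± 2.85 points (adjusted p = 0.0047). Hist1h4h had 82.4 to 98.1 (median 92.5) against 77.7, 81.1, 79.8, 77.4 and 70.2 with no overlap, a difference of 13.5 ± 4.002 points (adjusted p = 0.018). The H4 gene Hist1h4c (17.8 ± 5.01 points, adjusted p = 0.012) and the H3 gene Hist1h3b (10.4 ± 3.47 points, adjusted p = 0.037) were the others called. By contrast, Hist2h2ac, which shares its stretch with Hist2h2ab and Hist2h2be, stood near the top in both cell types, at 90.02 to 97.3 (median 94.7) in control HSCs and 93.6 to 99.3 (median 97.3) in control BMDMs, a difference of -2.66 ± 2.10 points (adjusted p = 0.43).

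The linker gene Hist1h1a, the H1 subtype found in dividing and immature cells, was marked in 4 of 6 control and 4 of 6 diabetic HSC libraries, in 0 of 6 control and 1 of 5 diabetic unstimulated BMDM libraries, and in 0 of 6 control and 0 of 6 diabetic libraries with LPS+IFN-γ. Its percentile in control mice was 45.9 to 83.5 (median 62.4) in HSCs and 20.1 to 57.6 (median 48.1) in BMDMs. The difference of 17.98 ± 6.69 points missed the threshold (adjusted p = 0.063), and in diabetic mice it was 10.4 ± 7.02 points (adjusted p = 0.35). Hist1h1c, another somatic subtype, had a difference of 9.64 ± 4.2 points in control mice (adjusted p = 0.12). No H1 gene passed the test in either kind of mouse. Outside chromosome 13, Hist3h2ba, an H2B gene, was called in control mice, with 59.8 to 73.2 (median 66.3) in HSCs against 20.1 to 67.4 (median 49.9) in BMDMs, whereas its neighbor Hist3h2a, an H2A gene, had 72.8 to 96.3 (median 86.0) against 76.5 to 95.0 (median 79.2). The H4 gene Hist4h4 had 80.3 to 99.2 (median 87.6) against 75.6 to 99.0 (median 87.2). The 10 Hist2h genes had H3K27ac means between 83.6 and 94.1 in control HSCs and between 82.3 and 96.7 in control BMDMs.

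**Figure D2:**
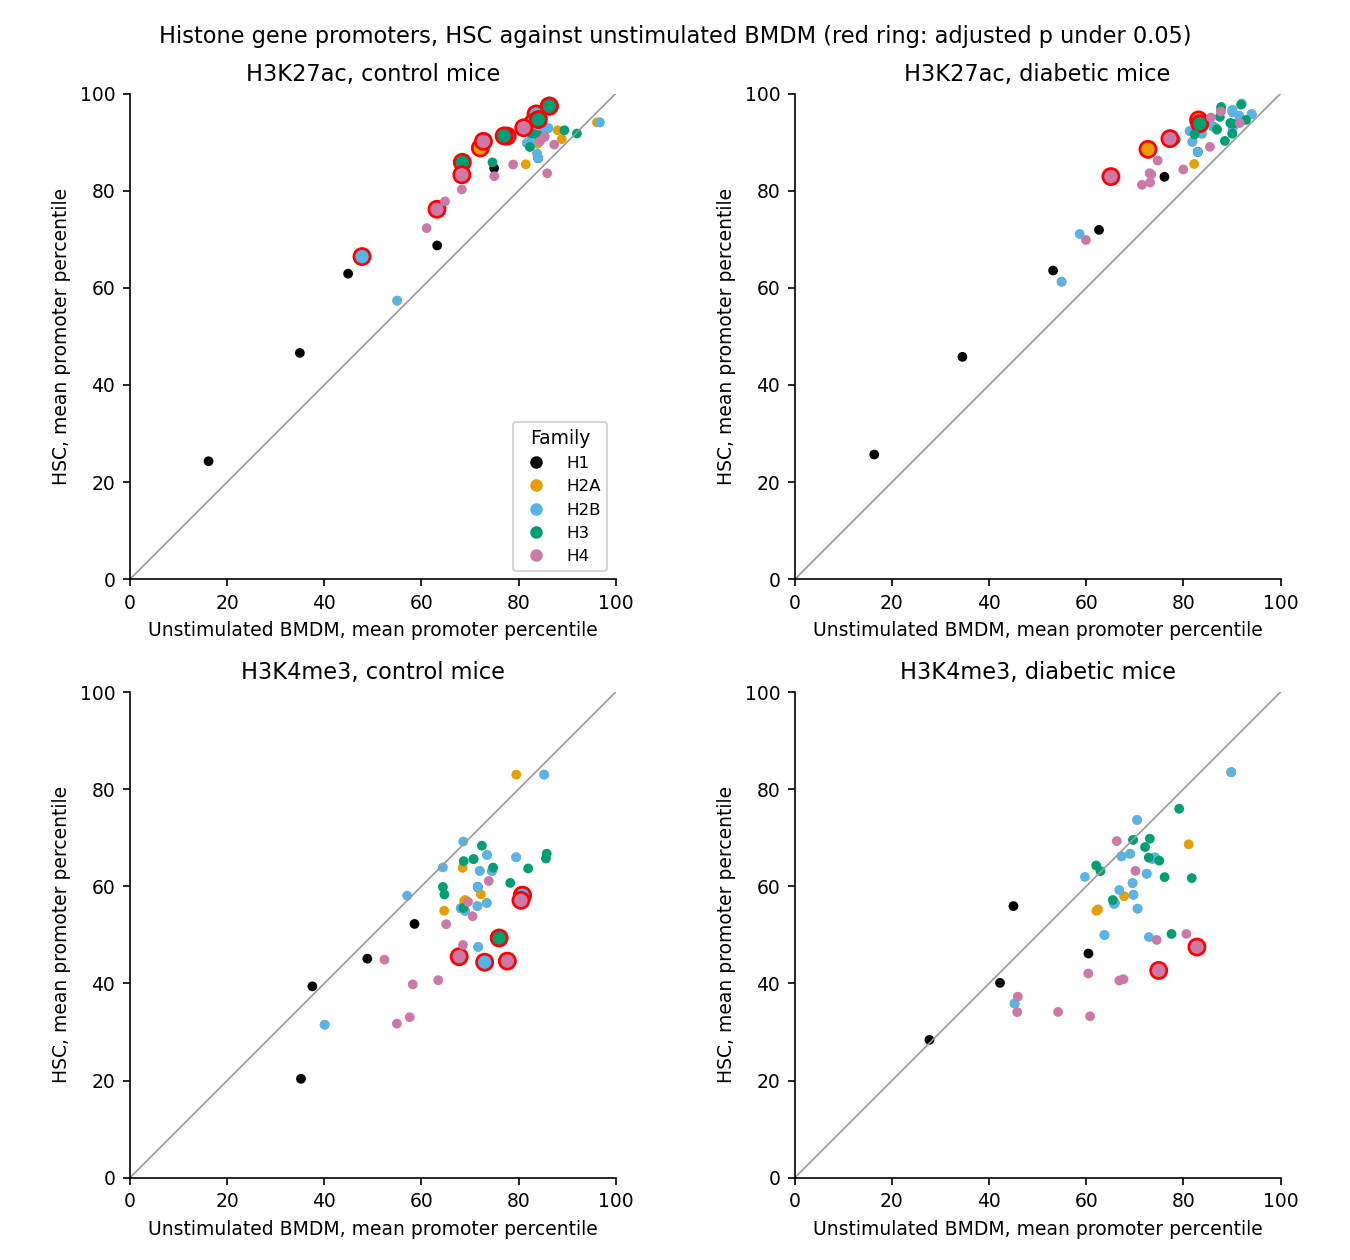
Mean promoter percentile of each histone gene in HSCs (y axis) against unstimulated BMDMs (x axis), for H3K27ac (top) and H3K4me3 (bottom) in control (left) and diabetic (right) mice; each point is 1 gene colored by family, the gray line marks equal means and red rings mark genes with an adjusted p under 0.05. In H3K27ac 62 and 67 of the 67 genes lie above the line, and in H3K4me3 most lie below it, H4 genes farthest.

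In H3K4me3 the same comparison ran the other way. In control mice 7 of 66 genes tested (10.6%) were lower in HSCs and 0 higher, against 3.16% lower and 2.11% higher of 17955 genes tested. The median difference was -12.7 points, against -0.740 over all genes. In diabetic mice 2 of 66 (3.03%) were lower and 0 higher, against 0.178% lower and 0.123% higher of all genes, with a median difference of -8.95 points. Of the 66 genes tested in both marks, 51 had higher H3K27ac and lower H3K4me3 means in HSCs in control and diabetic mice alike. Genes that share a stretch mostly share values, so these are not separate cases. Of all genes tested, 51.9% and 52.2% had a higher H3K27ac mean in control and diabetic HSCs, and 47.2% and 50.5% a higher H3K4me3 mean. The share of all genes with the joint pattern was not counted. The H3K4me3 calls were not stable. Without the doubted labels 0 genes were called in control mice, against 0.290% lower of all genes, and 1 of 66 (1.52%) in diabetic mice, against 0.139%. The share of all genes called lower thus fell as well, from 3.16% and 0.178%. In control mice 53 of 67 genes still had a lower mean and the median difference was -7.07 points. No gene was without overlap in control mice, against 2.90% of all genes, and 4 of 66 (6.06%), Hist1h3a, Hist1h4a, Hist1h4i and Hist1h4j, in diabetic mice, against 2.51%.

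Hist1h4j was the only histone gene called lower in both kinds of mice, and it is among those called higher in H3K27ac of control, but not of diabetic, HSCs. Its H3K4me3 percentile was 35.4 to 60.9 (median 43.1) in control HSCs and 50.1 to 79.2 (median 69.7) in control BMDMs, a difference of -22.3 ± 6.97 points (adjusted p = 0.047). In diabetic mice it was 29.6 (no promoter peak) to 52.3 (median 43.6) in HSCs and 92.1, 65.7, 85.4, 64.6 and 66.8 in BMDMs, a difference of -32.2 ± 7.31 points (adjusted p = 0.029). The diabetic groups did not overlap and the control groups did.

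Hist1h4k was the other gene called in diabetic mice, at -35.3 ± 8.64 points (adjusted p = 0.049). In control mice Hist1h4h, with 16.8 (no promoter peak) to 64.0 (median 53.6) in HSCs against 55.2 to 96.1 (median 81.9), had the largest difference of the genes called, -33.1 ± 9.68 points (adjusted p = 0.037). Hist1h2bh (-28.6 points), Hist1h3a (-26.7), Hist1h4a (-23.4) and the neighbors Hist1h2ah and Hist1h2bk (-22.6 each) were the rest. The median H4 gene was lower in HSCs by 20.6 points in control and 25.5 points in diabetic mice, beside 12.0 and 5.49 points for the median H3 gene. Hist1h2bm, higher in HSCs in H3K27ac, had 57.4 to 77.8 (median 62.4) against 43.1 to 84.5 (median 63.4) in H3K4me3 of control mice, a difference of -0.549 ± 7.53 points (adjusted p = 0.98).

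Cover along the chromosome 13 clusters gave another view of the same libraries. Peaks of the 10000 strongest covered 21.1 to 24.0 kb of cluster 1 (median 22.01 kb) in H3K27ac of control HSCs and 20.6 to 22.1 kb (median 21.4 kb) in diabetic HSCs. In unstimulated BMDMs they covered 13.03 to 21.1 kb (median 16.5 kb) in control mice, and 14.8, 19.0, 13.5, 16.5 and 18.6 kb in diabetic mice. The diabetic groups did not overlap, and the highest control BMDM library lay just above the lowest control HSC library. In H3K4me3, cluster 1 cover was 1.18 to 11.8 kb (median 4.43 kb) in control and 3.11 to 8.56 kb (median 5.80 kb) in diabetic HSCs. It was 6.67 to 18.3 kb (median 11.2 kb) in control BMDMs, and 9.02, 10.1, 9.50, 9.69 and 11.03 kb in diabetic BMDMs, again apart in diabetic mice only. Cluster 2 had the same order, with medians of 24.1 and 24.8 kb in control and diabetic HSCs against 20.9 and 19.0 kb in BMDMs for H3K27ac, and 3.73 and 4.98 kb against 11.02 and 10.1 kb for H3K4me3. Cover in kb also depends on how wide the peaks of a library are. As a share of the cover of all 10000 peaks, both clusters together made 0.318% to 0.412% in diabetic HSCs in H3K27ac. Unstimulated diabetic BMDMs had 0.303% to 0.352%, so these groups overlapped. In H3K4me3 the diabetic groups stayed apart, at 0.0551% to 0.143% in HSCs and 0.172% to 0.209% in BMDMs.

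**Figure D3:**
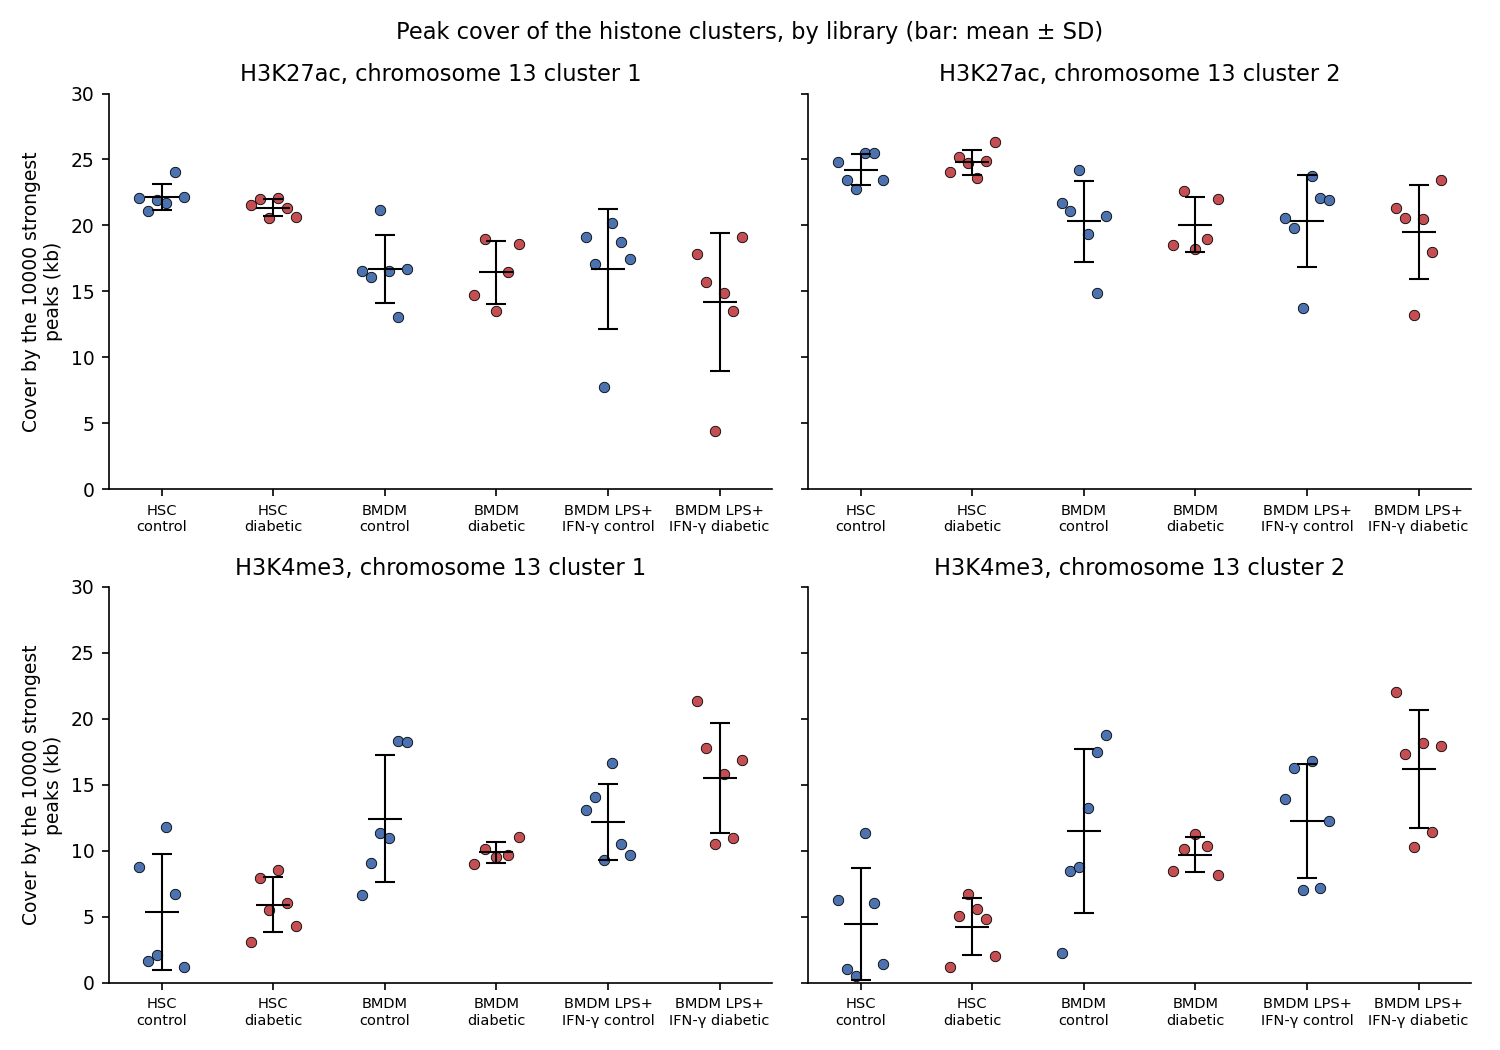
Cover of the chromosome 13 histone clusters 1 (left) and 2 (right), in kb, by the 10000 strongest peaks of each library, by group (x axis) for H3K27ac (top) and H3K4me3 (bottom); each point is 1 library, blue for control and red for diabetic mice, and bars give the mean and SD. In H3K27ac HSC libraries cover 20.6 to 24.0 kb of cluster 1, and in H3K4me3 1.18 to 11.8 kb.

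Read in 50-kb windows and tested over all windows of the genome, 4 of 13 cluster windows tested were higher in H3K27ac of control HSCs than of control BMDMs and 0 lower, against 12.0% of 10659 windows higher and 3.85% lower. In diabetic mice 2 were higher and 0 lower, against 10.2% and 2.65%. The window at chr13:21800001-21850000, which holds 6 histone genes, had a mean cover of 12.0 kb in control HSCs and 8.52 kb in control BMDMs (3.51 ± 1.07 kb, adjusted p = 0.024). The promoters of these 6 genes have only 0% to 8.04% unique words. Cover of this window may therefore include reads from near-identical copies, in both marks. The 2 windows called in both kinds of mice, at chr13:21900001-21950000 and chr13:21950001-22000000, hold no histone gene, but Zfp184, a zinc finger gene, and Pom121l2. They were the only windows called in diabetic mice, so no window with a histone gene was called there in H3K27ac. In H3K4me3, 4 of 12 windows were lower in control HSCs and 0 higher, against 2.20% and 0.809% of 12863 windows, and 0 in diabetic mice, against 0.148% lower and 0.187% higher. The same window at chr13:21800001-21850000 was among them, with 0.996 kb in HSCs and 5.23 kb in BMDMs (-4.23 ± 1.11 kb, adjusted p = 0.031). The window at chr13:23700001-23750000, with 3 histone genes, Hist1h1c among them, and Hfe, was also called lower, with a difference of -2.48 ± 0.643 kb (adjusted p = 0.029). So was the window at chr13:23750001-23800000, with 6 histone genes and Trim38, with a difference of -3.0 ± 0.850 kb (adjusted p = 0.046). Hist1h1a lies in it, but was marked in H3K4me3 in 0 of 6 control HSC and 0 of 6 unstimulated control BMDM libraries. Without the doubted labels, 1 H3K27ac window was called in control mice and 1 in diabetic mice, and 0 H3K4me3 windows.

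**Figure D4:**
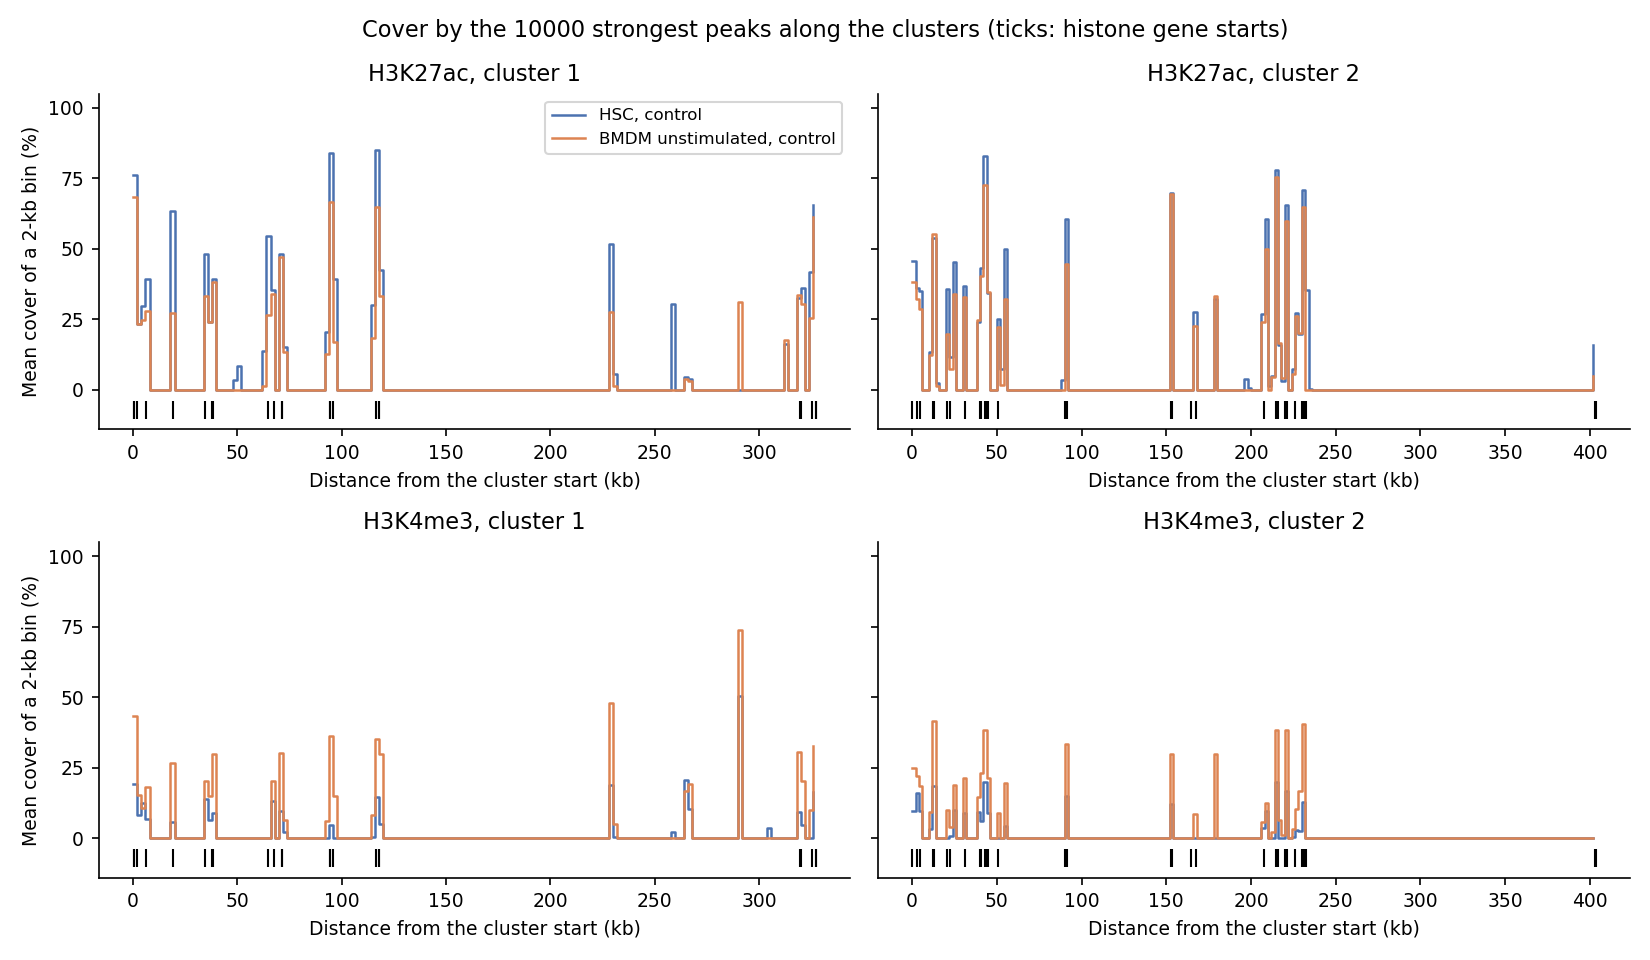
Mean cover, in percent of a 2-kb bin, by the 10000 strongest peaks along clusters 1 (left) and 2 (right) against distance from the cluster start in kb, for H3K27ac (top) and H3K4me3 (bottom) of control mice; blue is HSC, orange unstimulated BMDM, and ticks mark the starts of histone genes. Of the bins with any cover, HSC is the higher in 29 of 32 (cluster 1) and 32 of 39 (cluster 2) in H3K27ac, and BMDM in 25 of 29 and 31 of 31 in H3K4me3; most covered bins lie at histone gene starts, and a few in the right part of cluster 1 do not.

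Stimulation with LPS+IFN-γ, which moves macrophages toward an inflammatory state, was compared with medium alone. In H3K27ac of diabetic mice, 4 of 67 genes (5.97%) fell and 0 rose, against 1.35% lower and 0.976% higher of all genes tested. The median difference was -6.83 points, against -0.272 over all genes, with 51 of 67 genes lower. In control mice 0 histone genes were called, and so were 0% of all genes tested (4 histone genes and 915 of all genes had an unadjusted p under 0.05), with a median difference of -3.50 points and 43 of 67 genes lower. Without the doubted labels the median in control mice was -6.67 points with 52 of 67 lower. In diabetic mice 5 genes (7.46%), Hist1h2ai, Hist1h2bl, Hist1h3g, Hist1h3h and Hist1h3i, did not overlap, against 2.63% of all genes. The comparisons share the unstimulated libraries with those above.

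The 4 genes that fell lie in 3 stretches. Hist1h2bl and Hist1h2ai share a promoter at the start of cluster 1, with 64.1 to 82.3 (median 71.6) under LPS+IFN-γ and 95.8, 90.4, 83.9, 92.5 and 88.2 unstimulated, and no overlap. The difference was -17.0 ± 3.88 points (adjusted p = 0.016). Hist1h3e had 60.1 to 80.0 (median 71.9) against 90.5, 93.6, 92.1, 87.3 and 79.2, a difference of -16.7 ± 4.32 points (adjusted p = 0.031). Hist1h2bm had 58.0 to 78.0 (median 68.5) against 76.5, 90.4, 80.3, 85.2 and 80.9, a difference of -13.7 ± 3.83 points (adjusted p = 0.045). For Hist1h3e and Hist1h2bm the groups overlapped by single libraries. Diabetic LPS+IFN-γ replicate 3, the library with the fewest marked histone promoters (34) and the highest stimulation score (26.8), bears on this: without it 2 genes were called, and likewise without unstimulated replicates 2 or 5 or LPS+IFN-γ replicates 1 or 4. The score of replicate 3 is not independent, because the genes of the score were called in a fit that included that library.

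Family medians differed. In diabetic mice the median H3, H2B and H2A genes were lower with stimulation by 9.90, 9.19 and 6.41 points, whereas the median H4 gene was higher by 3.73 points and the median H1 gene by 0.285 points. In control mice 11 of 12 H3 genes were lower and 11 of 13 H4 genes higher, with medians of -4.86 and 3.01 points. None of the H4 genes passed the test. Hist4h4 had 83.5 to 99.8 (median 96.1) with stimulation against 98.5, 83.5, 82.6, 82.4 and 80.2 unstimulated in diabetic mice, a difference of 9.03 ± 4.25 points (adjusted p = 0.26). Hist2h2ac had 96.5 to 99.5 (median 97.6) against 96.1, 89.0, 89.0, 96.7 and 99.6, and Hist1h1c a difference of 6.63 ± 4.41 points (adjusted p = 0.45). Differences between families were not tested. The difference between diabetic and control mice in the effect of stimulation was called, by limma, for 0 histone genes and 0% of all genes (7 histone genes had an unadjusted p under 0.05).

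**Figure D5:**
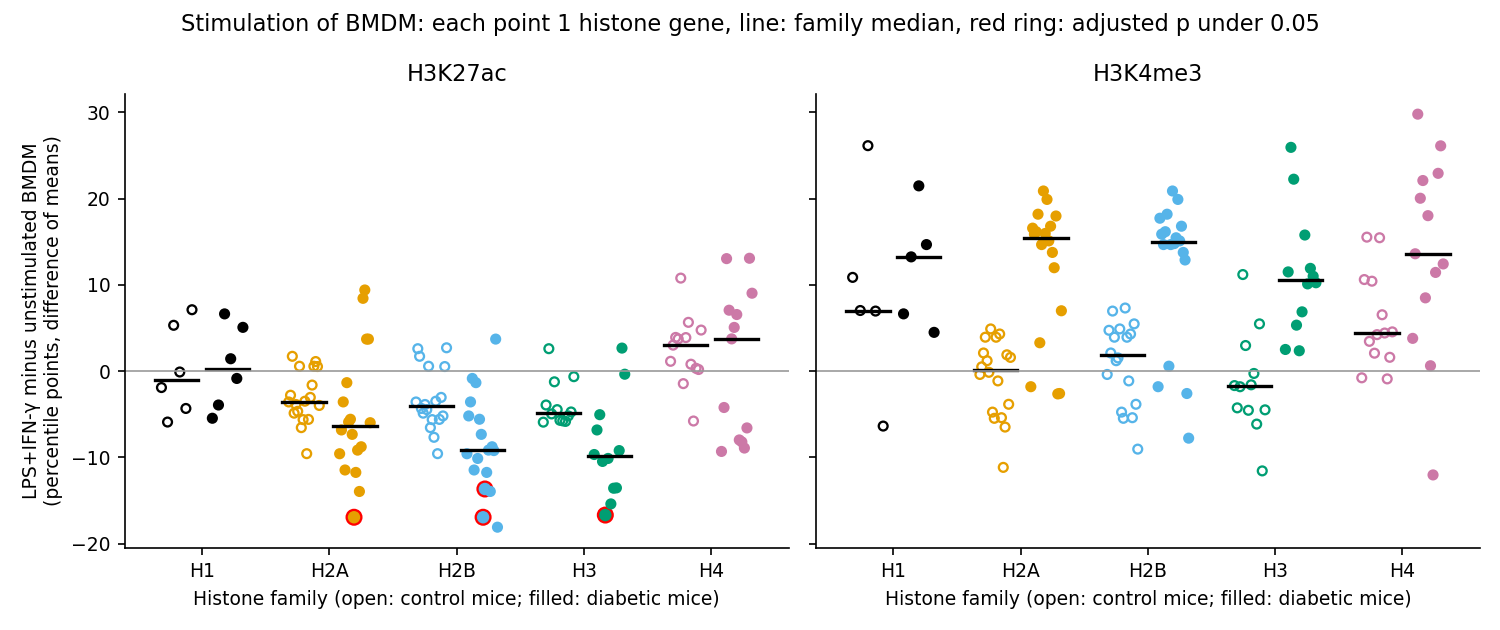
Difference in mean promoter percentile between LPS+IFN-γ and unstimulated BMDMs (y axis, percentile points) for each histone gene by family (x axis), for H3K27ac (left) and H3K4me3 (right); open points are control mice, filled points diabetic mice, black lines family medians and red rings genes with an adjusted p under 0.05. In H3K27ac of diabetic mice the median H3 gene is lower by 9.90 points and the median H4 gene higher by 3.73; in H3K4me3 only the diabetic mice show medians above 10.

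In H3K4me3, 0 histone genes and 0% of all genes were called for stimulation in control mice, and likewise 0 and 0% in diabetic mice. In diabetic mice 59 of 66 genes had a higher mean with stimulation, with a median of 14.7 points against -0.340 over all genes, and 20 of 66 had an unadjusted p under 0.05, against 6.75% of all genes (2 of 66 in control mice, against 3.38%). In control mice the median was 1.59 points, and 7.88 points over the 67 genes without the doubted labels. The gene with the lowest p in control mice was Hist1h1c, with 74.0 to 95.7 (median 83.5) with stimulation against 47.8 to 76.4 (median 56.4) without (26.1 ± 7.29 points, adjusted p = 1.0). Its diabetic difference was 21.5 ± 7.65 points (adjusted p = 0.52). It was marked in 6 of 6 control and 6 of 6 diabetic libraries with stimulation, and in 2 of 6 and 3 of 5 without. Of the cluster windows, 0 were called for stimulation in either mark, against 0% and 0.178% of all H3K27ac windows in control and diabetic mice and 0% of H3K4me3 windows in both.

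Diabetic and control mice were then compared within each preparation, the question that the study's design asks first. By limma, 0 histone genes were called in each of the 6 comparisons. Fisher's exact test on marked libraries also called 0. With 5 or 6 libraries per group its p-values cannot be small enough to pass adjustment unless many genes separate fully. Its 0 therefore decides nothing. In the order HSC, unstimulated and stimulated BMDM, 0, 4 and 1 of 67 had an unadjusted limma p under 0.05 in H3K27ac, against 2.28%, 5.79% and 4.70% of all genes, and 0, 1 and 10 of 66 in H3K4me3, against 4.68%, 4.01% and 5.15%. Of all genes, 0.00568% (1 gene) were called in H3K27ac of HSCs and 0% in unstimulated and in stimulated BMDMs, and 0% in each of the 3 comparisons of H3K4me3. Of the windows, 0 cluster windows were called, against 0.0469%, 0% and 0.00938% of all H3K27ac windows in HSCs, unstimulated and stimulated BMDMs, and 0.0311%, 0% and 0% of H3K4me3 windows. In H3K27ac of HSCs, 55 of 67 histone genes had a higher mean in diabetic mice, with a median difference of 1.70 points against -0.0701 over all genes. In H3K27ac of unstimulated BMDMs 44 of 67 had a higher mean in diabetic mice, with a median of 2.26 points, but 29 of 67 and -0.233 points without the doubted labels, and of stimulated BMDMs 30 of 67, with -0.458 points. In H3K4me3 of HSCs 41 of 66 were higher, with a median of 0.774 points, and of unstimulated BMDMs 25 of 66, with -1.88 points, which without the doubted labels became 47 of 67 and 4.03 points. In H3K4me3 of stimulated BMDMs, 61 of 66 had a higher mean in diabetic mice, with a median difference of 9.35 points against -0.341 over all genes. Without 4 H3K4me3 libraries doubted for their scaling in earlier results of these data (control LPS+IFN-γ replicate 6, unstimulated control replicate 6 and diabetic LPS+IFN-γ replicates 1 and 2), 57 of 67 did, with a median of 6.76 points. For Hist1h2bm the H3K27ac difference between diabetic and control HSCs was 1.99 ± 3.65 points, and for Hist1h4j it was 5.02 ± 3.77 points.

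Other genes of the pathway were read in the same fits. Of 28 factors of histone gene transcription, 3′-end processing and chromatin assembly, 5 had higher H3K27ac in HSCs than in unstimulated BMDMs of control mice and 4 in diabetic mice, and 0 were lower, against the 7.36% and 6.82% of all genes higher given above. Chaf1a, a subunit of the CAF-1 assembly factor, was called in both (73.6 against 61.6 in control mice, adjusted p = 0.025), as was Srrt, a partner of the cap-binding complex (95.3 against 84.5, adjusted p = 0.047). Cstf2, which also serves 3′-end cleavage, was called in control mice (76.2 against 59.3, adjusted p = 0.0035), Casp8ap2, a component of histone locus bodies also named FLASH, likewise (90.6 against 77.4, adjusted p = 0.010), and Ncbp1, the larger cap-binding subunit, likewise (85.8 against 74.3, adjusted p = 0.012). Chaf1b, the next CAF-1 subunit (71.0 against 59.0, adjusted p = 0.038), and E2f1 (78.1 against 64.4, adjusted p = 0.042, named after its values were seen), were called in diabetic mice. Npat had 80.7 ± 12.5 (SD, n = 6) against 74.1 ± 10.8 (n = 6) in control mice (adjusted p = 0.37), and Slbp 92.7 ± 4.72 against 84.1 ± 6.26 (adjusted p = 0.17). In H3K4me3, Hinfp, a factor of H4 promoters, was lower in control HSCs (70.4 against 94.0, adjusted p = 0.024), and Yy1 was higher in diabetic HSCs (95.9 against 72.6, adjusted p = 0.046). Of all genes, 3.16% were lower in control HSCs and 0.123% higher in diabetic HSCs in this mark. Whether the 28 factors exceeded these shares was not tested.

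Of 20 cell cycle genes, 5 had higher H3K27ac in HSCs in control and 5 in diabetic mice, and 0 were lower, against the same 7.36% and 6.82%. Mki67, the gene of the proliferation antigen Ki-67, was called in both, at 89.9 ± 5.20 against 75.8 ± 4.13 in control mice (adjusted p = 0.0093) and 87.1 ± 5.54 against 71.3 ± 9.85 in diabetic mice (adjusted p = 0.0053). Aurkb, the mitotic kinase, and Ccna2, cyclin A2, were called in control mice (73.1 against 58.0, adjusted p = 0.0022, and 76.0 against 58.7, adjusted p = 0.026). Mcm6, of the replicative helicase, and Plk1, a mitotic kinase, were called in diabetic mice (82.7 against 61.2, adjusted p = 0.0022, and 64.7 against 47.5, adjusted p = 0.0026). In H3K4me3 none of the 20 was called, by limma, in either kind of mouse, with medians of -7.14 and -3.74 points (lowest adjusted p 0.068 and 0.14).

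Replacement histones, made throughout the cell cycle from polyadenylated mRNAs, were mixed. Of 11 genes, 2 were higher and 1 lower in H3K27ac of control HSCs, against 7.36% higher and 7.84% lower of all genes. In diabetic HSCs 2 were higher and 0 lower, against 6.82% and 8.18%. H2afz was higher in both, at 80.2 ± 6.47 against 66.7 ± 4.75 in control mice (adjusted p = 0.0072) and 86.3 ± 3.32 against 70.01 ± 2.66 in diabetic mice (adjusted p = 0.0022). H2afv was higher in control mice (83.9 against 70.9, adjusted p = 0.034), and H1fx lower (47.4 against 57.7, adjusted p = 0.046). H2afx, which carries the stem-loop, was higher in diabetic HSCs (92.3 against 80.7, adjusted p = 0.022). H1f0, the linker histone of resting cells, had 87.4 ± 10.9 in HSCs against 94.3 ± 6.32 in BMDMs of control mice (adjusted p = 0.35), and H3f3b, of histone H3.3, 91.4 ± 4.21 against 84.3 ± 5.78 (adjusted p = 0.16).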

How the data were processed

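ChIP-seq of H3K27ac and H3K4me3 was available as 70 lists of narrow peaks, 35 per mark, and 36 input samples had no list of their own to use here. Libraries were sequenced as single reads. The submitters' processing notes name Trim Galore 0.3.3, cutadapt 1.8, FastQC 0.11.3, Bowtie2 2.2.6, Picard 2.18.14 and 2.19.2, bedtools 2.19.1, MACS2 2.2.7.1 and GRCm38/mm10, without parameters, and per the deposited peak names the authors called peaks in each library against an input of the same cells. The deposited columns used were position, summit, fold enrichment over background, −log10 p-value and −log10 q-value of each peak. Read depth was not given in the lists, so no counting interval could be drawn, and list length (13730 to 277213 peaks) stands in for it.

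The histone genes and gene lists, the alternatives and the doubted libraries were chosen with earlier results of these data known. A promoter reached 1 kb to both sides of a start site, with 93513 starts of protein-coding genes taken from GENCODE M21, and promoter percentiles came from the highest −log10 p. limma 3.58.1 in R 4.3.3 (empirical Bayes with trend) was fitted over the 35 libraries of a mark, with a mean for each of the 6 groups, to genes with a promoter peak in at least 2 libraries (17620 in H3K27ac and 17955 in H3K4me3). The 14 comparisons and 4 interactions had Benjamini-Hochberg adjustment over all genes tested and a threshold of 0.05. Cover of 50-kb windows by the 10000 strongest peaks was tested in the same way. The fits were tested on simulated data. Tables were made with Python 3.11.15, numpy 2.4.6, pandas 2.3.3, scipy 1.17.1 and numba 0.67.0, and figures with matplotlib 3.10.9. Named genes were the H1 and testis genes, those outside chromosome 13, up to 6 genes in each direction by adjusted p in a comparison, and up to 3 per list. Alternatives changed peaks, ranking, promoter width, scale, filter, window, test, libraries, replicate block and start sites; the last, RefSeq starts, was chosen after seeing the data.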

Additional observations from a re-analysis of the deposited data

Results flagged for a closer look

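In 4 measures over 48 groups of 5 or 6 libraries, 4 libraries stood apart from their group by Dixon's criterion, which chance alone meets in about 1 of 20 groups. All 4 were H3K27ac libraries. Diabetic BMDM LPS+IFN-γ replicate 3 had 34 marked histone promoters, beside 59 to 61 in the other libraries of its group. Unstimulated diabetic BMDM replicate 2 had a median histone promoter percentile of 89.3, the highest of its group. Control HSC replicate 5 had 24.0 kb of cluster 1 covered, the highest of its group. Control BMDM LPS+IFN-γ replicate 3 had 7.75 kb of cluster 1 covered, the lowest of its group.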

How the results depend on the processing

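The 8 counts above 0 depended on the settings: of 84 alternatives to them, 50 moved the count by over 1.5 times and 34 did not. Of 206 alternatives to the 24 counts at 0, 1 called any. The alternatives include Fisher's exact test on marked libraries, which can hardly pass adjustment with groups this small, so its counts of 0 decide nothing. No alternative called a histone gene lower in H3K27ac of HSCs or higher in H3K4me3 of HSCs. Counts are given for HSC against unstimulated BMDM unless stated, and the causes of the shifts were not tested. H3K27ac in control mice (16 genes) gave 10 with the 10000 strongest peaks only, 9 without the gene filter, 8 with only the 2 groups fitted, 1 without the doubted labels and 1 by Fisher's exact test on marked libraries. In diabetic mice (5 genes) it gave 2 ranked by fold enrichment, 12 with the summit inside the promoter, 11 with 500 bp promoters, 14 on the logit scale, 13 with only the 2 groups fitted and 2 by Fisher's test. For stimulation in diabetic mice (4 genes), it gave 2 by fold, 0 on the logit scale, 2 with only the 2 groups fitted, 7 without the doubted labels and 0 by Fisher's test. H3K4me3 in control mice (7 genes) gave 0 with the 10000 strongest peaks, by fold, on the logit scale, by Fisher's test and without the libraries of doubted labels or of doubted scaling, 4 with 500 bp promoters, 3 without the gene filter and 2 with only the 2 groups fitted. In diabetic mice (2 genes) it gave 1 with summits, 500 bp promoters, no filter, or either set of doubted libraries left out, and 0 with the 10000 strongest peaks, by fold, on the logit scale, with only the 2 groups fitted and by Fisher's test.

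H3K27ac windows in control mice (4) gave 2 at 100 kb, 1 when divided by total cover and 1 without the doubted labels. In diabetic mice (2) they gave 4 with the 5000 or the 20000 strongest peaks, 0 with all peaks, and 1 without the doubted labels; between diabetic and control HSCs (0) the 5000 strongest gave 1. H3K4me3 windows in control mice (4) gave 0 with the 5000 or the 20000 strongest and without either set of doubted libraries, 8 with all peaks, 2 at 100 kb and 1 when divided by total cover.

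Whether replicate numbers pair the libraries was not settled. In no comparison did every same-numbered pair of deviations correlate above 0.1 (-0.288 to 0.242 for H3K27ac of control HSCs and BMDMs). For stimulation in diabetic BMDMs all 5 pairs were positive (0.0251 to 0.355 with 4 over 0.1 in H3K27ac, and 0.0109 to 0.336 with 3 over 0.1 in H3K4me3). Their medians were 0.115 and 0.170, against -0.0591 and -0.0934 for pairs of unlike numbers. Same-number medians of the other comparisons ran from -0.0549 to 0.0854. With the replicate block the counts were 14, 6 and 3 genes in H3K27ac and 7 and 2 in H3K4me3, in the order above, and 4 windows in H3K27ac of diabetic mice.

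Leaving out 1 library at a time gave 6 to 17, 3 to 8 and 2 to 5 genes in H3K27ac, 0 to 9 and 0 to 3 in H3K4me3, 1 to 4 and 1 to 3 windows in H3K27ac, 0 to 4 in H3K4me3, and 0 to 1 H3K4me3 window for stimulation in diabetic mice. The H3K27ac control count fell below 10 without HSC replicate 1 (8), 5 (7) or 6 (9) or unstimulated replicate 1 (7), 5 (6) or 6 (9). The diabetic count was 3 without HSC replicate 6 and 8 without unstimulated replicate 1. The H3K4me3 control count was 0 without HSC replicates 2 or 3 or unstimulated replicates 5 or 6. It was 1 without HSC replicate 6, 2 without unstimulated replicate 3, 3 without unstimulated replicate 1, and 4 without HSC replicate 5 or unstimulated replicates 2 or 4. The diabetic count was 0 without HSC replicates 1 or 6 or unstimulated replicates 1, 2, 4 or 5, and 1 without HSC replicates 2, 3 or 4. Read depth is unknown, and short lists leave more genes at the tied lowest percentile.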
